A study of Mus musculus with 8 samples.

Results

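Transcripts of 10 cytokine genes were followed in Tregs (regulatory T cells, a CD4+ lineage that keeps immune responses in check): Il10, Il21, Il4, Il5, Il9, Il13, Il17a, Ifng, Tnf and Ebi3. All 10 were measured, among 19937 genes in all, each by the only probe set annotated to that single symbol, so the rule of keeping the probe set selected by the highest mean over the 8 arrays decided none of them. Il10 and Il21 stand at the head of the list because their differences between the groups were known from earlier results of the same arrays. Their differences are therefore given as a description, with no p-value printed. Both genes enter the counts of calls over the list, from which nothing is read.

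The cells came from bone marrow chimeras. CD3ε-/- mice, which cannot form T cells of their own because the T cell receptor (TCR) complex lacks a subunit, were lethally irradiated and given marrow of WT donors (WT chimeras) or of IIKO donors (IIKO chimeras). The labels describe IIKO chimera Tregs as peripheral cells deprived of TCR encounters with MHC class II; they do not name the disrupted gene or say how many mice a sample pools. Irradiated recipients keep their own radioresistant cells, such as thymic epithelium. Both groups thus share the CD3ε-/- recipient, the irradiation, the C57BL/6 strain and the age of 6 to 8 weeks. CD4+ TCRβ+ CD25+ cells were taken from peripheral lymph nodes and spleen at 28 days, enriched on magnetic beads and sorted. Total RNA, 100 ng per sample, was hybridised to 1 Affymetrix array, with 4 biological replicates in each group. Any effect of the donor marrow other than the lost contact with class II cannot be told apart from it.

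Cytokines are short-range messages whose genes are mostly silent in resting T cells and are switched on after TCR stimulation. IL-10 restrains dendritic cells and macrophages and is a main effector product of activated Tregs, above all at mucosal surfaces. IL-21 is made chiefly by follicular helper T cells and acts on B cells. IL-4, IL-5, IL-9 and IL-13 belong to type 2 helper responses, IL-17A to Th17 cells and interferon gamma to Th1 cells. TNF is an inflammatory cytokine, and EBI3 is a subunit that pairs with p28 to form IL-27 and with p35 to form IL-35.

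The upstream sequences of Il21, of its neighbour Il2 and of Il17a are shown because Il21 and Il2 lie side by side and both stood higher in IIKO chimeras, while Il17a stood lower. They are the 250 bases before the RefSeq transcript start on build GRCm38.p6, 5′ to 3′ on the strand of the gene; the array annotation names no build. Il21 lies at chr3:37232637-37232886 on the minus strand, Il2 at chr3:37125955-37126204 on the minus strand and Il17a at chr1:20730655-20730904 on the plus strand. Capitals mark letters that match a motif named after the sequences.
Il21: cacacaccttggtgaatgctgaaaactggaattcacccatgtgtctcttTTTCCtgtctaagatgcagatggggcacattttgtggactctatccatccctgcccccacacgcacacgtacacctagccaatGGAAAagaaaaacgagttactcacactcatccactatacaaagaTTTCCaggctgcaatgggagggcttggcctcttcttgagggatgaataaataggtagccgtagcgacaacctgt
Il2: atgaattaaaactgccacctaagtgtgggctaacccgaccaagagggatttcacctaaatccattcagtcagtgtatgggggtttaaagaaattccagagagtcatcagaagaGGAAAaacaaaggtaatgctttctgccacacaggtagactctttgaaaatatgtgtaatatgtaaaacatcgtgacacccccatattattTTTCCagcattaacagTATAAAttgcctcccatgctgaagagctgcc
Il17a: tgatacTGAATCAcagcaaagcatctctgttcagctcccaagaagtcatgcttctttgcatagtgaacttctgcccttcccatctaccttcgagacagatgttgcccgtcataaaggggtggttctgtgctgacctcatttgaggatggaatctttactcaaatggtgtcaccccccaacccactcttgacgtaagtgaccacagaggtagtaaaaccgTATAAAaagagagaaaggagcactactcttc

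Motifs were searched on both strands. The NFAT core GGAAA was found at 3 places in the Il21 sequence, starting 201, 118 and 74 bases before the transcript start, and at 2 places in that of Il2. It is a short motif that 54.9% of all 19176 promoters of that length held. TATAAA, the letters of a TATA box, stood 31 bases before the start of both Il2 and Il17a and in 10.5% of all promoters. The Il21 sequence did not hold it. Il17a held 1 match to the AP-1 motif TGANTCA (6.04% of all promoters). The STAT motif, searched as TTCNNNGAA (6.55%), and the IRF motif, searched as GAAANNGAA (6.79%), were in none of the sequences shown. No printed matches overlap each other, though the letters of the IRF and NFAT motifs can. A match is a description of letters and says nothing of binding. Of the 10 member genes, 9 had an entry among the promoter sequences; Il10 is named only.

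The cells carried the transcripts of their gate. Foxp3, whose product defines the Treg lineage, was at 10.63 ± 0.04 (log2, SD, n = 4 arrays) in WT and 10.68 ± 0.12 in IIKO chimeras, and Cd3e was at 11.90 ± 0.07 and 11.87 ± 0.03. Il2ra, Ctla4 and Cd4 had means between 10.62 and 12.36 in both groups. Of the 9 identity markers, 0 passed limma's test across all genes. At an unadjusted p under 0.05, 2 were higher, Il2ra (0.17 ± 0.06, SE) and Ctla4 (0.12 ± 0.05), beside 5.27% of all genes. With IIKO higher, 3 had groups that did not overlap, Il2ra, Ctla4 and Ikzf2 (0.05 ± 0.05), beside 2.83% of all genes. Of the markers of other cells, which a sort for CD4+ TCRβ+ CD25+ cells is meant to leave out, those with the smallest p were Cd79b (-0.19 ± 0.12, SE) and Sdc1 (-0.07 ± 0.06) for B and plasma cells. For myeloid and dendritic cells they were Siglech (-0.19 ± 0.06, groups apart) and Flt3 (0.11 ± 0.08). For type 2 innate lymphoid cells they were Il17rb (0.22 ± 0.10) and Hpgds (0.35 ± 0.19). The lowest of limma's adjusted p for these 6 was 0.199. Groups lay apart as for Siglech, with IIKO lower, for 7.69% of all genes. The medians of the arrays ranged from 6.96 to 7.03 over 34760 probe sets. The number of arrays limits the precision. In bulk RNA, fewer cells with a transcript and less of it per cell cannot be told apart.

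Gene levels, as the mean over the 8 arrays, had a lower quartile of 6.04 and a median of 7.10. These are the brightness of probe sets and not amounts per transcript length, so the cytokines are placed against the quartile but not ranked by abundance. Clearly above it lay Il10 (9.31), Ebi3 (9.09), Tnf (8.69), Ifng (8.59) and Il13 (7.51), and Il4 (6.75) lay 0.71 above. Near it, within 0.5 on the log2 scale, lay Il17a (6.45), Il21 (6.17), Il5 (5.68) and Il9 (5.63). Il5 and Il9 were below 6.04 on all 8 arrays. Il21 was below it on all 4 WT arrays and above it on all 4 IIKO arrays. Against the lower quartile of all probe sets in place of named genes, 5.77, Il17a lay above the margin and the other 9 kept their place. Background was not examined, so the size of a difference for a transcript near the quartile depends on a level that was not checked.

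**Figure D1:**
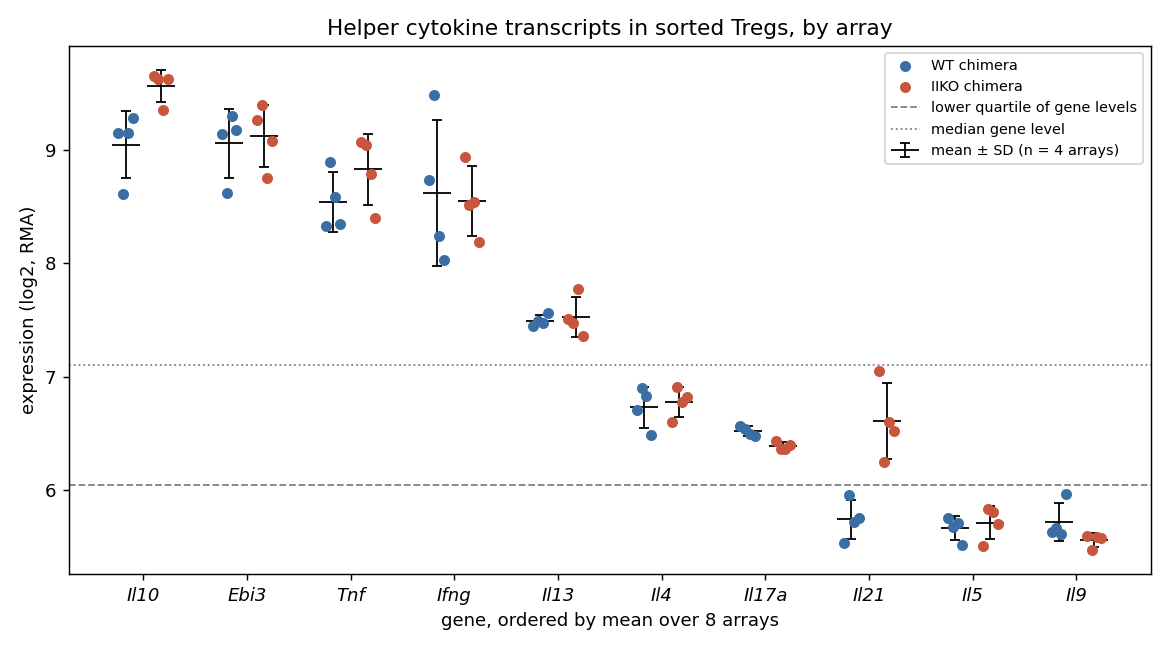
Expression (log2, RMA) of the 10 cytokine genes on each of 8 arrays, WT chimeras in blue and IIKO chimeras in red, with mean ± SD of 4 arrays per group; the dashed line is the lower quartile of gene levels (6.04) and the dotted line their median (7.10). Il21 lies below the dashed line in every WT array and above it in every IIKO array, and Il5 and Il9 lie below it throughout.

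IL-10 and IL-21 transcripts were higher in the IIKO chimeras in every pair of arrays, while the type 2 cytokines Il4, Il5 and Il13, Ifng and Ebi3 had overlapping groups and differences under 0.1 in size. Il9 and Il17a stood slightly lower, and Tnf had a higher mean with overlapping groups. By limma across all genes with Benjamini-Hochberg adjustment at 0.05, 0 of the 10 passed, beside 0.286% of the 19937 genes. At an unadjusted p under 0.05, 2 were higher (Il10 and Il21), beside 5.27% of all genes, and 1 was lower (Il17a), beside 12.0%. The groups did not overlap, with IIKO higher, for 2 (beside 2.83% of all genes) and, with IIKO lower, for 2, Il9 and Il17a (beside 7.69%). Nothing is read from these counts, since the list was proposed with this comparison known. The median difference of the 10 was 0.05, and that of all genes was -0.04.

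**Figure D2:**
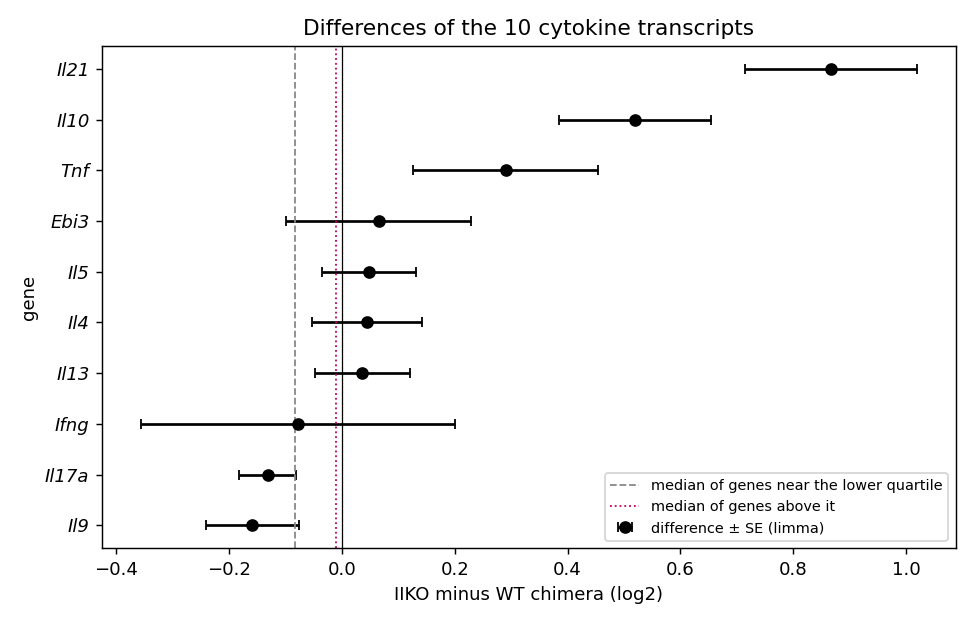
Difference of group means, IIKO minus WT chimera (log2), for each of the 10 genes ± SE from limma (n = 4 arrays each). The dashed line is the median difference of genes near the lower quartile (-0.08) and the dotted line that of genes above it (-0.01); Il21 (0.87) and Il10 (0.52) have the highest differences and Il9 (-0.16) and Il17a (-0.13) the lowest.

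Il10 was at 9.15, 8.61, 9.15 and 9.29 on WT arrays 1 to 4 and at 9.65, 9.63, 9.36 and 9.63 on IIKO arrays 1 to 4. WT array 2 was the lowest of the WT arrays and IIKO array 3 the lowest of the IIKO arrays, and the groups came within 0.07 of each other without overlap. The means were 9.05 ± 0.30 and 9.57 ± 0.14 (SD, n = 4 arrays each), a difference of 0.52 ± 0.13 (SE), or 1.43-fold. Without WT array 2 the difference was 0.37. The direction was the same under the 3 other normalizations tried. The separation was not: after a further quantile normalization, and after a cyclic loess normalization, the Il10 groups overlapped, with differences of 0.47 and 0.48.

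Il21 was at 5.53, 5.95, 5.72 and 5.75 on WT arrays 1 to 4 and at 7.05, 6.25, 6.60 and 6.52 on IIKO arrays 1 to 4. IIKO array 1 was the highest and IIKO array 2 the lowest of its group, still 0.29 above the highest WT array. The means were 5.74 ± 0.17 and 6.60 ± 0.34 (SD, n = 4 arrays each), a difference of 0.87 ± 0.15 (SE), or 1.82-fold. Because the WT level lay below the lower quartile, neither the log2 difference nor the fold is a firm size. Its groups stayed apart in the values as deposited and under all 3 other normalizations (differences of 0.92 to 0.95).

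Markers of follicular helper T cells, which make IL-21, did not stand higher beside it. All 8 of the list were measured, with 1 positive and 7 negative differences, beside 62.9% negative over all genes. Of genes more than 0.5 above the lower quartile, where all of the list but Ascl2 lay, 53.1% were negative. Bcl6, the transcription factor of follicular helper cells, differed by -0.22 ± 0.09 (SE) and Sh2d1a, the adaptor SAP, by -0.20 ± 0.08 (limma adjusted p = 0.236 and 0.252). The log2 of the summed signal of the list ran from 12.78 to 13.10 on WT and from 12.91 to 13.04 on IIKO arrays. That sum rests on Icos, a costimulatory receptor gene that Tregs also express, at 12.34, which was also the 1 member with a positive difference (0.12 ± 0.09). None of the 8 lay below the lower quartile, and their part in the Il21 difference was not tested.

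The gene next to Il21 among tested genes is Il2, which encodes the T cell growth factor that Tregs consume and are known to make little of. Il2 was at 5.75, 6.13, 6.01 and 6.13 on WT arrays 1 to 4 and at 6.65, 6.18, 6.44 and 6.51 on IIKO arrays 1 to 4. The Il2 groups did not overlap, as was so, with IIKO higher, for 2.83% of all genes. As for Il21, IIKO array 1 was highest and IIKO array 2 lowest of its group. Its difference was 0.44 ± 0.11 (SE; limma adjusted p = 0.157), at a mean level of 6.23 that is also near the lower quartile. On the other side, Cetn4, a centrin gene, differed by 0.46 ± 0.20, Bbs12 by 0.16 ± 0.11 and Fgf2os by -0.04 ± 0.08. Beyond Il2, Adad1 differed by -0.15 ± 0.06 and 4932438A13Rik by 0.07 ± 0.13. The nearest gene that passed, Mynn (0.39 ± 0.06, adjusted p = 0.0284), lay 46 tested genes away.

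Around Il10 on chromosome 1, the IL-10 family genes Il19 (-0.05 ± 0.06, SE), Il20 (-0.04 ± 0.06) and Il24 (-0.05 ± 0.07) had overlapping groups. On its other side, Mapkapk2, a kinase of the p38 pathway, differed by 0.14 ± 0.09, Dyrk3 by -0.03 ± 0.11 and Eif2d by 0.11 ± 0.06. The nearest gene past the adjusted threshold, Mroh2a, lay 167 tested genes from Il10. Over the 49 different genes that lie within 3 tested genes of any cytokine of the list, 0 passed limma's adjusted threshold, 4 were higher and 3 lower at an unadjusted p under 0.05 (beside 5.27% and 12.0% of all genes), and the median difference was -0.02.

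IL-4, IL-13 and IL-5 are encoded side by side on chromosome 11, with Rad50 between Il13 and Il5. Il4 ran from 6.49 to 6.90 on WT and from 6.60 to 6.91 on IIKO arrays, and Il5 from 5.51 to 5.75 and from 5.50 to 5.83. Il13 ran from 7.45 to 7.56 on WT arrays and from 7.36 to 7.78 on IIKO arrays, where array 3 was the highest. All 3 overlapped between the groups. Their differences were 0.04 ± 0.10, 0.05 ± 0.08 and 0.04 ± 0.08 in the order Il4, Il5, Il13 (SE; limma adjusted p = 0.833, 0.788 and 0.847). The 95% confidence intervals were -0.17 to 0.26, -0.14 to 0.23 and -0.15 to 0.22. Each changed sign when some single array was left out: Il4 was at -0.04 without WT array 4, Il5 at -0.0012 without WT array 4 and Il13 at -0.05 without IIKO array 3. The DNA repair gene Rad50 differed by -0.04 ± 0.05, Irf1, on the far side of Il5, by 0.11 ± 0.10, and Kif3a, on the far side of Il4, by 0.17 ± 0.13. Septin8 (-0.11 ± 0.08), Sowaha (-0.08 ± 0.08), Slc22a5 (0.04 ± 0.12) and Slc22a21 (0.07 ± 0.06) complete the neighbourhood, and 0 of them passed.

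Il9, a mast cell and type 2 cytokine on chromosome 13, was at 5.63, 5.66, 5.60 and 5.96 on WT arrays 1 to 4 and at 5.59, 5.46, 5.58 and 5.58 on IIKO arrays 1 to 4. Every IIKO array was lower than every WT array, by as little as 0.014, and WT array 4 stood above the rest. The difference was -0.16 ± 0.08 (SE; limma adjusted p = 0.34), and -0.08 without WT array 4. Markers of mast cells, basophils and eosinophils, other sources of type 2 cytokines that the CD4+ TCRβ+ sort is meant to leave out, had 6 of 8 members below the lower quartile (Mcpt8, Cpa3, Ms4a2, Fcer1a, Epx and Prss34). The log2 of their summed signal was 9.14 to 9.18 on WT and 8.96 to 9.12 on IIKO arrays. Every IIKO array thus lay below every WT array. The brightest markers, Siglecf (7.61) and Kit (6.93), weigh most in that sum. Of the 8 differences 7 were negative, beside 82.6% of genes near the lower quartile and 77.0% of genes farther below it. Of genes farther above it, where Siglecf and Kit lay, 53.1% were negative. Siglecf differed by -0.21 ± 0.07 (groups apart) and Prss34 by -0.17 ± 0.06 (SE, limma adjusted p = 0.206 and 0.238). Groups did not overlap, with IIKO lower, for 1 of the 8 (Siglecf), beside 7.69% of all genes. The part of these markers in the Il9 result was not tested.

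Il17a, the Th17 cytokine on chromosome 1, was at 6.57, 6.54, 6.49 and 6.47 on WT arrays 1 to 4 and at 6.43, 6.36, 6.36 and 6.40 on IIKO arrays 1 to 4. The groups did not overlap, with a gap of 0.05. Its difference of -0.13 ± 0.05 (SE; limma adjusted p = 0.236) was small, 1.1-fold. Its neighbour Il17f, which encodes the partner cytokine IL-17F, had overlapping groups and a difference of 0.08 ± 0.10 (adjusted p = 0.706).

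Il9 and Il17a belong to a range of levels in which most genes had lower means in the IIKO arrays. Of the 3971 genes within 0.5 of the lower quartile, 82.6% had a negative difference, with a median of -0.08, and 12.2% had every IIKO array below every WT array against 0.63% the other way round. Of the 12654 genes above that margin, 53.1% were negative. After a further quantile normalization Il9 differed by -0.08 and Il17a by -0.06, after cyclic loess by -0.08 and -0.05, and after centring arrays on their medians by -0.11 and -0.08. The groups of both genes overlapped under each of these 3. Over all genes, the unadjusted calls were 1050 higher and 2396 lower in the values as deposited, 1032 and 1299 after quantile normalization, 1964 and 1003 after median centring, and 1247 and 1106 after cyclic loess.

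Ifng, the Th1 cytokine on chromosome 10, varied most within a group. It was at 8.74, 9.49, 8.24 and 8.03 on WT arrays 1 to 4 and at 8.94, 8.52, 8.55 and 8.19 on IIKO arrays 1 to 4. The IIKO range lay inside the WT range. The difference was -0.08 ± 0.28 (SE; limma adjusted p = 0.903), with a 95% confidence interval of -0.70 to 0.54. Without WT array 2 the difference was 0.21, and without IIKO array 4 it was 0.04. Markers of NK and CD8 T cells, which also make interferon gamma and which the CD4+ TCRβ+ sort is meant to leave out, had a summed signal of 11.97 to 12.25 on WT and 12.01 to 12.41 on IIKO arrays (log2). That sum rests on Gzmb, the granzyme B gene that Tregs also express, at 11.95. Of the 8 markers, Klrk1, Klrb1c and Ncr1 lay below the lower quartile. Klrk1, the NKG2D receptor gene, differed by 0.45 ± 0.14 and Klrd1 by 0.40 ± 0.16 (limma adjusted p = 0.193 and 0.252). Groups did not overlap, with IIKO higher, for 1 of the 8, Klrk1 (beside 2.83% of all genes). With IIKO lower they did not for 2, Cd8a (-0.11 ± 0.05) and Klrb1c (-0.10 ± 0.05), beside 7.69%. Of the 8 differences 4 were positive and 4 negative, and their part in the Ifng values was not tested.

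Tnf, on chromosome 17 within the MHC, was at 8.33, 8.90, 8.59 and 8.35 on WT arrays 1 to 4 and at 9.08, 9.05, 8.79 and 8.41 on IIKO arrays 1 to 4. IIKO arrays 1 and 2 were the highest of all, IIKO array 4 lay among the WT arrays, and 13 of the 16 pairs had IIKO above WT. The means were 8.54 ± 0.27 and 8.83 ± 0.31 (SD, n = 4 arrays each), a difference of 0.29 ± 0.16 (SE; limma adjusted p = 0.379). Its neighbours of the TNF family had differences nearer 0: Lta, lymphotoxin alpha, differed by -0.06 ± 0.10 and Ltb, lymphotoxin beta, by 0.09 ± 0.09. Lst1 (-0.12 ± 0.10), Aif1, a macrophage gene (0.18 ± 0.20), Nfkbil1 (-0.03 ± 0.05) and Atp6v1g2 (0.01 ± 0.08) lie around them, and 0 of these 6 passed. The nearest gene past the threshold was H2-T24, a class I gene 33 tested genes away (0.72 ± 0.09, adjusted p = 0.0114).

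Ebi3, also on chromosome 17, was at 9.15, 8.62, 9.30 and 9.18 on WT arrays 1 to 4 and at 9.27, 9.40, 8.76 and 9.08 on IIKO arrays 1 to 4. WT array 2 and IIKO array 3 were the low arrays of their groups, which overlapped over most of their range. The difference was 0.06 ± 0.16 (SE; limma adjusted p = 0.858), with a 95% confidence interval of -0.30 to 0.43, and it was -0.08 without WT array 2. Of its partner subunits, Il12a, which encodes p35, differed by -0.20 ± 0.08 with groups that did not overlap (limma adjusted p = 0.236). Il27, which encodes p28, differed by -0.06 ± 0.07 (0.708). Both were singled out after their values were seen. Il12a, at a mean of 6.76, lay under the median gene level. Of the dimmer genes there, 79.5% had negative differences and 10.9% had every IIKO array below every WT array.

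**Figure D3:**
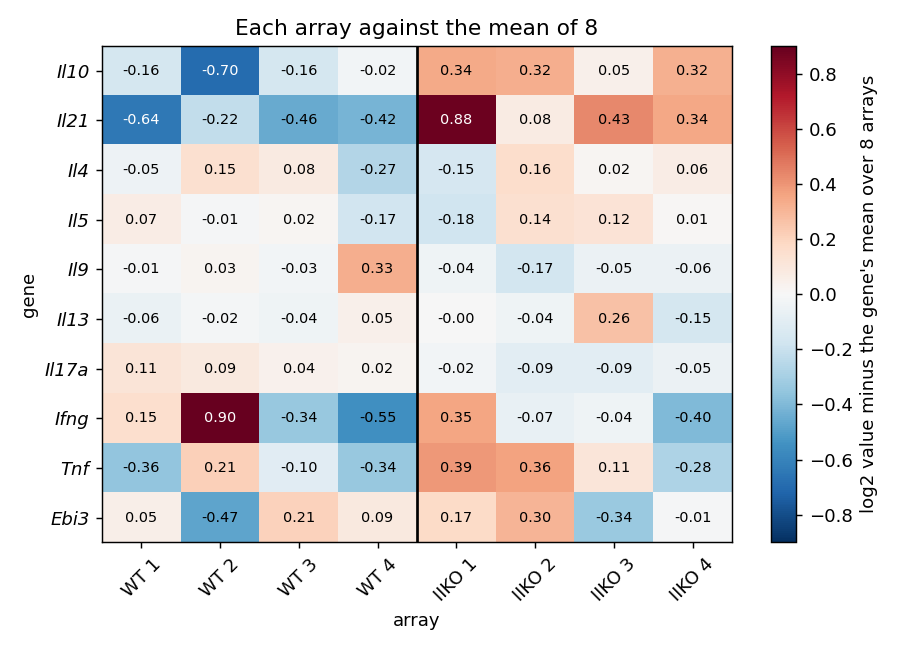
Each cell is the log2 value of 1 gene on 1 array minus the mean of that gene over the 8 arrays, with WT chimeras left and IIKO chimeras right of the line. Il10 and Il21 change colour at the line, and WT array 2 holds the highest Ifng (9.49) beside the lowest Il10 (8.61) and the lowest Ebi3 (8.62) of all 8 arrays.

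For each of the 10 genes, the array farthest from its group mean was also noted. WT array 2 was farthest from its group mean for 5 of the 10 genes, WT array 4 for 4 and IIKO array 1 for 5, against 0 for WT array 3. Such counts were not made over all genes, so nothing is read from them. WT array 2 had the lowest Il10 and Ebi3 of all arrays and the highest Ifng, and within its group also the highest Il21 and Tnf. IIKO array 1 had the highest Il10, Il21 and Tnf of all arrays. IIKO array 2 came close to it for Il10 (9.63 against 9.65) and for Tnf (9.05 against 9.08). No date, slide or other batch is given in the sources used here.

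Around the cytokines themselves, 0 of the genes of 4 further lists passed limma's adjusted threshold. Among 22 measured T cell cytokines and partner subunits outside the 10, 3 were higher and 1 lower at an unadjusted p under 0.05 (beside 5.27% and 12.0% of all genes), and the median difference was 0.03. The higher ones were Il2, Cd40lg, the CD40 ligand that activates B cells (0.62 ± 0.20, SE), and Tnfsf8, the CD30 ligand (0.50 ± 0.16); their limma adjusted p lay between 0.157 and 0.2. Cd40lg was at 6.85, 7.25, 7.20 and 6.60 on WT arrays 1 to 4 and at 8.03, 7.07, 7.70 and 7.59 on IIKO arrays 1 to 4. Its order over the arrays was that of Il21 within the IIKO group and another within the WT group. The lower one was Il12a.

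The receptor chains for these cytokines had 18 measured genes, 10 with positive and 8 with negative differences, and a median of 0.02. At an unadjusted p under 0.05, 2 were higher (beside 5.27% of all genes) and 0 lower (beside 12.0%). They were Il6st, the gp130 chain (0.15 ± 0.06, SE), and Il27ra, its partner in the IL-27 receptor (0.21 ± 0.09). Ifngr1, a chain of the interferon gamma receptor, differed by 0.18 ± 0.08 (limma adjusted p for the 3 between 0.257 and 0.291). The chains for IL-10 and IL-21 had overlapping groups, with Il10ra at -0.01 ± 0.16, Il10rb at -0.13 ± 0.10 and Il21r at -0.08 ± 0.07 as differences; these 3 were singled out after their values were seen. Among 14 measured transducers and feedback genes, 3 were higher at an unadjusted p under 0.05 (beside 5.27% of all genes), 0 lower (beside 12.0%), and the median was 0.09. They were Stat4, which carries IL-12 signals (0.36 ± 0.10), Stat6, which carries IL-4 and IL-13 signals (0.19 ± 0.07), and the adaptor Traf2 (0.17 ± 0.07), with adjusted p from 0.16 to 0.265.

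Of 19 measured transcription factors that bear on cytokine genes, 3 were higher and 1, Bcl6, lower at an unadjusted p under 0.05 (beside 5.27% and 12.0% of all genes), and the median was -0.02. Bhlhe40, a factor of activated T cells known to repress Il10 in helper cells, differed by 0.65 ± 0.14 (SE; limma adjusted p = 0.116), with groups that did not overlap. Irf4, needed for effector Tregs, differed by 0.26 ± 0.07 (0.16), also without overlap. Groups thus did not overlap, with IIKO higher, for 2 of the 19 (beside 2.83% of all genes) and, with IIKO lower, for 0 (beside 7.69%). Prdm1, which encodes Blimp-1, a factor that promotes Il10 in Tregs, was the other higher one (0.24 ± 0.10, limma adjusted p = 0.265). Maf, another factor of Il10, differed by 0.12 ± 0.08 (0.445). Other factors of the list had negative differences, such as Batf (-0.06 ± 0.09), Nfil3 (-0.05 ± 0.09) and Ahr (-0.02 ± 0.13). Of the 19 differences 9 were positive and 10 negative. Prdm1, Maf, Batf, Nfil3 and Ahr were singled out after their values were seen. The lineage factors Gata3 (0.09 ± 0.11) and Tbx21 (-0.04 ± 0.07), likewise singled out, had overlapping groups.

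**Figure D4:**
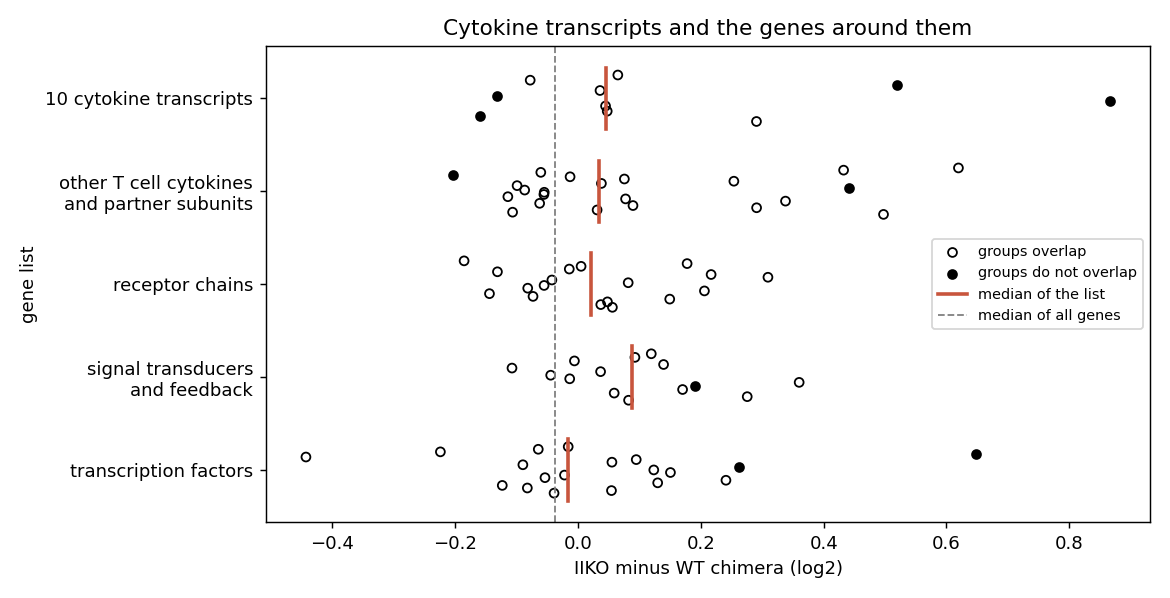
Differences of group means, IIKO minus WT chimera (log2), for the genes of 5 lists; filled points are genes whose groups do not overlap, red lines the list medians and the dashed line the median of all genes (-0.04). The 2 rightmost filled points of the top row are Il10 (0.52) and Il21 (0.87).

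The genes whose values ran most like those of Il10 and Il21 over the 8 arrays were sought among 14952 genes with a mean above the lower quartile, as a description over few arrays. For Il10 they were Edaradd (Pearson r = 0.985), Casc1 (0.968), Gnaq (0.967), Tmem71 (0.966) and Top2b (0.966). With the group means removed, these r lay between 0.906 and 0.972. For Il21 they were Mink1 (0.964), Gripap1 (0.955), AW549877 (0.953), Il2 (0.953) and Dcun1d4 (0.949), and with the group means removed 0.779 to 0.901. Il2 was the only one of these 10 among the cytokine lists. Part of each r is the difference between the groups that chose Il10 and Il21.

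**Figure D5:**
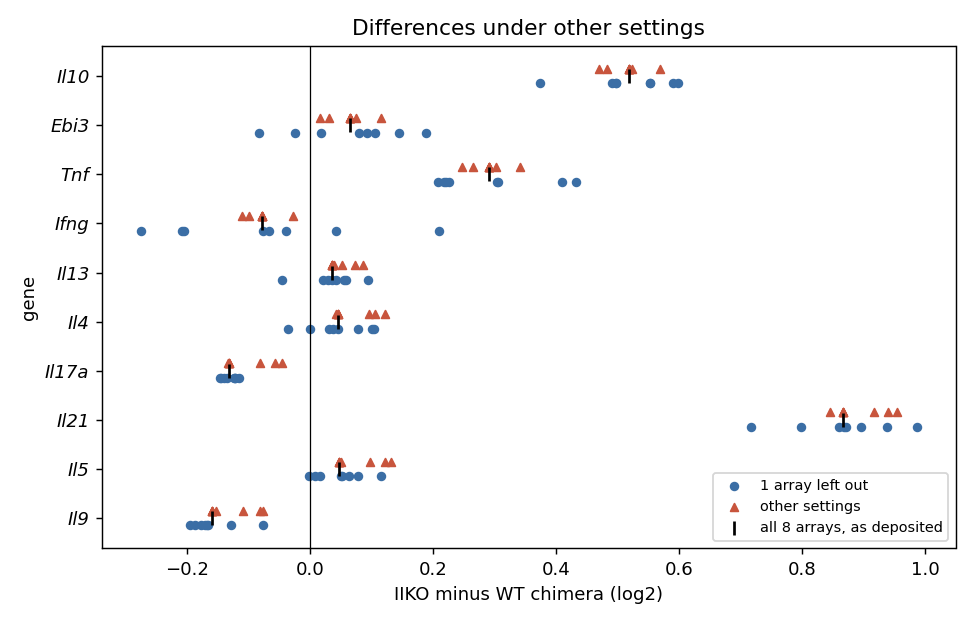
Difference IIKO minus WT chimera (log2) of each gene with all 8 arrays as deposited (black bar), with each array left out in turn (blue circles) and under the other settings (red triangles). Il21, Il10 and Tnf stay right of 0 and Il9 and Il17a left of it, while Il4, Il5, Il13, Ifng and Ebi3 fall on both sides.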

How the data were processed

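RNA of sorted Tregs was measured on 8 Affymetrix arrays, grouped by title. The authors deposited log2 values per probe set, for which the submitters' processing notes name affy and RMA; versions, parameters and probe-level data were not used here, and background was not examined. Of 34760 probe sets, 21640 carry 1 gene symbol in the platform annotation, leaving 19937 genes after the brightest probe set was kept for 954 genes with several. Gene order came from a RefSeq table (GRCm38.p6). The contrast IIKO minus WT was fitted in limma 3.58.1 (R 4.3.3; lmFit, eBayes, two-sided, Benjamini-Hochberg over all genes, threshold 0.05), and the fit was tested on simulated data. P-values measure the spread between samples, whose number of mice is not given. Cell markers below 6.04, the lower quartile, are named where they bear on a result. The members and lists were chosen with earlier results of these data known. Named are the 10 genes, the 3 genes of each pathway list with the smallest p (2 of marker lists), 3 tested neighbours on either side of Il10, Il21, Tnf and the Il4 to Il5 cluster, the 5 genes most like Il10 and Il21 and the identity markers. Genes outside this rule, such as Il17f, Rad50, Icos, Gzmb and the nearest genes past the threshold, were chosen after their values were seen. Of 89 pathway genes 83 were measured. Markers of B and plasma cells (8.78 to 9.08 on WT, 8.79 to 8.96 on IIKO arrays, log2 of the summed signal), myeloid and dendritic cells (10.72 to 11.04, 10.86 to 11.05) and type 2 innate lymphoid cells (11.63 to 11.70, 11.30 to 12.03) had overlapping sums. The sum for type 2 innate lymphoid cells rests on Klrg1 (10.91) and Gata3 (9.92), and that for myeloid and dendritic cells on Cst3 (10.44). These 2 sums therefore say little of the dimmer markers in their lists. Figures used Python 3.11.15 and matplotlib 3.10.9. Alternatives were another threshold, normalization, variance model, array weights or probe set rule, a replicate block, brighter genes only and each array left out; cyclic loess was added after the data were seen.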

Additional observations from a re-analysis of the deposited data

Results flagged for a closer look

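In a group of 4 arrays, 3 of the 20 sets of values for the cytokines had 1 array standing apart from the other 3 by Dixon's criterion, which chance meets in about 1 group in 20. Il10 on IIKO array 3 was at 9.36, while the other IIKO arrays lay between 9.63 and 9.65. Il9 on WT array 4 was at 5.96, with the other WT arrays between 5.60 and 5.66. Il9 on IIKO array 2 was at 5.46, with the other IIKO arrays between 5.58 and 5.59.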

How the results depend on the processing

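Il10, Il21 and Tnf kept positive and Il9 and Il17a negative differences under every alternative that gave a value; Il10 ran from 0.37 to 0.60, Il21 from 0.72 to 0.99, Tnf from 0.21 to 0.43, Il9 from -0.19 to -0.08 and Il17a from -0.15 to -0.05. The other 5 changed sign with single arrays left out, over ranges of -0.036 to 0.10 for Il4, -0.0012 to 0.12 for Il5, -0.046 to 0.094 for Il13, -0.28 to 0.21 for Ifng and -0.083 to 0.19 for Ebi3. Il4 was at -0.00078 without IIKO array 2, Ifng at 0.04 without IIKO array 4 and Ebi3 at -0.025 without IIKO array 2. The count of the 10 past the adjusted threshold, 0 as deposited, was 1 (Il21, which the list holds because of this comparison, so nothing is read from it) after a further quantile normalization, after median centring, after cyclic loess and without IIKO array 2, and 0 to 1 did as arrays were left out in turn. Over all genes 57 passed as deposited, 21 at a threshold of 0.01, and 32 to 50 with an array left out, the lowest counts (32 to 36) when WT 1, WT 3, IIKO 1, IIKO 2 or IIKO 3 was dropped.

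When only the 9968 brighter genes were tested, 1539 of them lay at an unadjusted p under 0.05. Among these were 1 of the 10 (Il10) and 2 other cytokines. Il4, Il5, Il9, Il17a and Il21 were too dim to enter. Of the 18 receptor chains, 1 lay at such a p after quantile normalization, 1 after cyclic loess, and 1 to 2 with an array left out. Of the 14 transducers, 1 did after quantile normalization, and of the 19 transcription factors, 2 to 6 with an array left out. Of all 19937 genes, 2331 did after quantile normalization, 2353 after cyclic loess and 2532 to 4043 with an array left out. The causes were not tested. With the replicate number as a block, 31 of all genes and 0 of the 10 passed, and no sign changed. Deviations of the WT and IIKO arrays of the same number had r = 0.04, -0.01, -0.07 and 0.22 for numbers 1 to 4. Of the 8 arrays, 2 correlated best with their own number, both of them number 4. The labels do not say whether the numbers pair arrays, and so few values cannot decide it. Signal over background was not known, which limits every value near or below the lower quartile.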
